A study of Mus musculus with 9 samples.

Results

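The genes Fos, Fosb, Jun, Junb, Atf3, Egr1, Egr2, Ier2, Nr4a1 and Myc encode transcription factors and nuclear regulators of the immediate early response. They were taken by symbol from the 19938 genes that the array annotation names on a transcript cluster of their own, a transcript cluster being the unit in which the array reads a gene or a piece of one. Each of the 10 genes had 1 such cluster. The samples came from a primary culture of the stromal vascular fraction (SVF), the non-adipocyte cells released from subcutaneous adipose tissue, of C57BL6/J mice labelled as 10 weeks old. All samples grew in a minimal serum medium with no further treatment and with no transgene in the labels. The beating group (n = 4) holds the spontaneously contracting colonies picked by hand on day 28, the non-beating group (n = 4) holds the other cells of those dishes, and 1 pool of 6 round cells was picked on day 14. The colonies of several dishes from 1 lot of SVF formed a beating sample, how many animals stand behind a lot is not given here for these samples, and the non-beating cells are a mixture of whatever else grew in the dish. The methods name 1 RNA kit for the picked colonies and another for unselected cells. If the second was used for the non-beating samples, kit and group cannot be told apart. Only the beating colonies were picked by hand, so the way of collection and group cannot be told apart either.

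Immediate early genes are transcribed within minutes of a growth factor, calcium, stress or contraction signal, without new protein synthesis, because the factors that bind their promoters are already in the cell. Serum response factor with its partners acts through CArG boxes, CREB through cAMP response elements, and MEF2 factors, which also drive muscle genes, through MEF2 boxes. Their RNA is short-lived, so the level in a sample reflects the recent state of the cells, their handling before lysis included. Fos and Jun family proteins pair to form AP-1, the EGR proteins and Nr4a1 bind DNA through zinc fingers, and Myc with Max drives growth genes.

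Values are log2 signals of Affymetrix Mouse Gene 1.0 ST arrays as deposited, so a difference of 1 stands for a 2-fold difference in signal. The groups were compared with limma, a linear model with a variance shared across clusters, over all 33323 clusters, with Benjamini-Hochberg adjusted p under 0.05 as the call. The medians of the 8 beating and non-beating arrays lay between 3.08 and 3.17, and that of the round pool was 3.54. The mean of 12 striated muscle markers lay between 8.58 and 8.79 on the beating arrays and between 3.73 and 4.11 on the non-beating arrays, and was 8.75 in the round pool. The beating and round labels therefore went with muscle RNA.

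None of the 10 genes passed limma's test between beating and non-beating samples in either direction. Of all clusters, limma called 2.82% (940) as higher in beating and 3.34% (1114) as lower, and after centring each array on its median 837 and 1617. At an unadjusted p under 0.05 limma gave 2 of the 10, Ier2 and Nr4a1, both with the lower mean in beating samples, where 20.9% of all clusters reached that level in either direction. The two-sample test with pooled variance that the methods name gave 0 of the 10 after adjustment and 1, Ier2, at an unadjusted p under 0.05. The mean was lower in the beating samples for 9 of the 10 genes and higher for Atf3, whose sign turned when each array was centred on its median. The median of the 10 differences was -0.22 on the log2 scale, against 0.01 over all clusters. Of 10 housekeeping genes measured, 8 also had the lower mean in beating samples, with a median difference of -0.10. A lower mean in most genes was thus not particular to the immediate early genes. The share of all clusters with a lower mean was not counted. For 7 of the 10 genes the 95% interval of the difference lay wholly within 2-fold in both directions, and the exceptions were Egr2, Nr4a1 and Myc. Arrays of tissue-like cultures cannot tell fewer cells of a type from less RNA per cell, and this holds for each difference below.

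**Figure D1:**
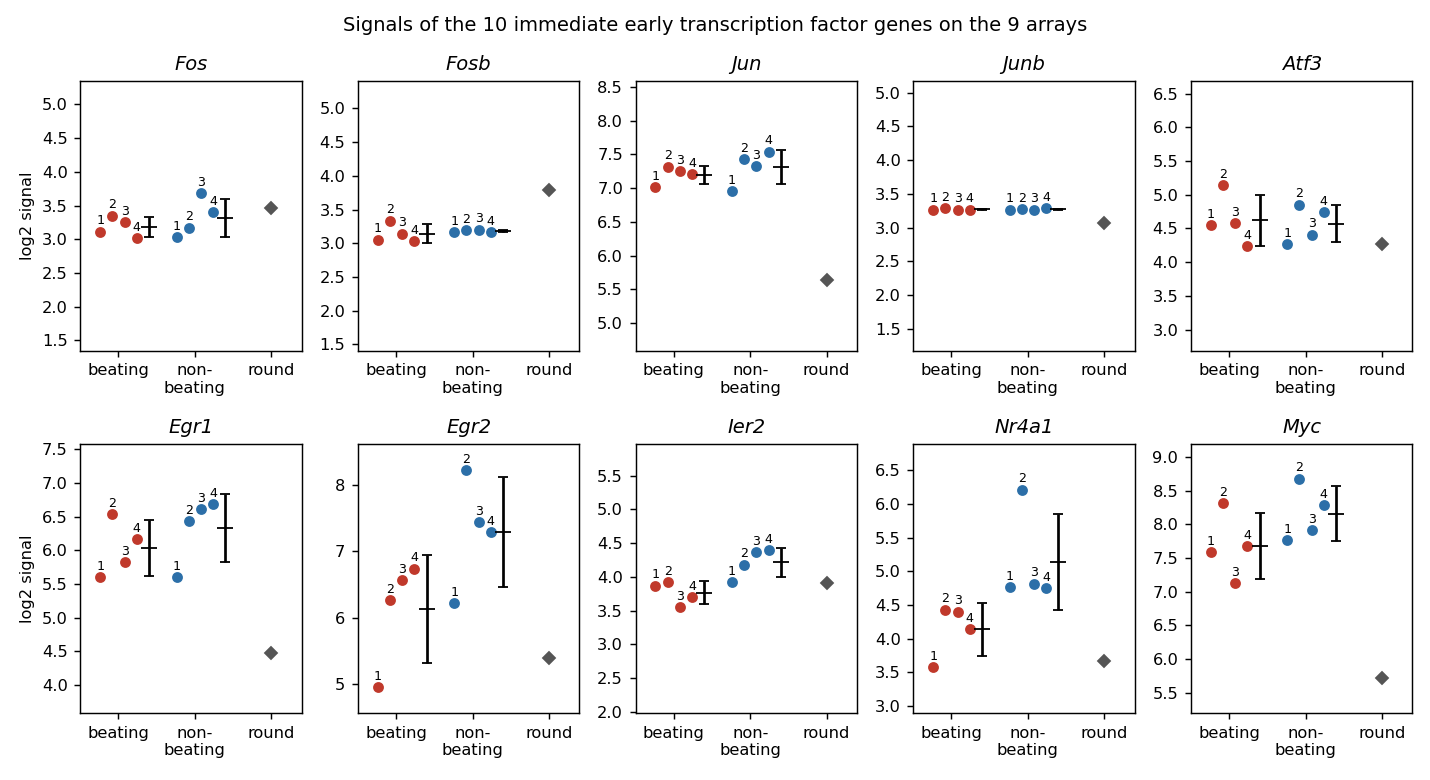
Log2 signals of the 10 genes on each array, with the replicate number above each point, bars for the mean and SD of the 4 beating (red) and 4 non-beating (blue) samples, and a diamond for the 1 round pool. The vertical axes of the panels cover different ranges, since probes of different genes do not share a scale. The groups overlap in all panels but that of Nr4a1, where the lowest non-beating value, 4.75, lies above the highest beating value, 4.43.

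Nr4a1, an orphan nuclear receptor that is switched on by many signals and is known in macrophages and in muscle metabolism, was the 1 gene of the 10 whose groups did not overlap. Its signals were 3.57, 4.43, 4.40 and 4.14 in beating replicates 1 to 4. They were 4.76, 6.21, 4.82 and 4.75 in non-beating replicates 1 to 4. Every non-beating array lay above every beating array, and non-beating replicate 2 lay far above the other 3, which were close to each other. Of all clusters, 8.24% had groups that did not overlap with beating lower and 5.98% with beating higher, so 1 of 10 is close to the background. The beating mean was 4.14 ± 0.40 and the non-beating mean 5.14 ± 0.72 (SD over 4 arrays). The difference was -0.999 on the log2 scale (95% interval -1.82 to -0.17, limma adjusted p = 0.157), a 2.00-fold lower mean signal in beating samples. Without non-beating replicate 2 it was -0.64, with an adjusted p of 0.176.

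The promoter table for RefSeq (GRCm38.p6) holds a start site of Nr4a1 inside the gene's span on the plus strand of chromosome 15. In the 250 bases before it the core of the cAMP response element, TGACG or CGTCA on the other strand, occurs at 4 places and the EGR site GCGGGGGCG (CGCCCCCGC) at 1. The following 30-base windows show them, 5′ to 3′, because both inputs belong to the family's own regulators; capitals mark the matches.
Nr4a1, chr15:101266611-101266640, plus strand: tgCGTCAatggaaccccgcgtgCGTCAcgc
Nr4a1, chr15:101266771-101266800, plus strand: cgtgtgCGTCAgtggCGCCCCCGCccctct
Nr4a1, chr15:101266794-101266823, plus strand: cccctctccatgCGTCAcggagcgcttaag
The core occurs in 17.8% of the 32851 promoter windows of 250 bases in the table, and the EGR site in 2.57%. A match of letters is a description, not a bound site.

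Egr2, a zinc finger factor of nerve sheath cells and of alternatively activated macrophages, had the largest difference of the 10. The beating arrays gave 4.95, 6.27, 6.57 and 6.74 in replicates 1 to 4. The non-beating arrays gave 6.22, 8.23, 7.43 and 7.29. Non-beating replicate 1 fell among the beating values and below 3 of them, while the other 3 non-beating arrays lay above all beating arrays. The means were 6.13 ± 0.81 and 7.29 ± 0.82 (SD, n = 4 each), a difference of -1.16 (95% interval -2.32 to 0.00, limma adjusted p = 0.239). The mean beating signal was thus 2.23-fold lower, and the interval reached from 4.99-fold lower to no difference. The value rested on single arrays: without beating replicate 1, the lowest array, it was -0.77, and without non-beating replicate 1 it was -1.52. Its relative Egr3 stood at 4.38 ± 0.17 and 4.32 ± 0.17 (SD, n = 4 each; adjusted p = 0.811).

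Promoter windows were searched for 7 of the 10 genes (Atf3, Egr2, Fos, Fosb, Jun, Junb and Nr4a1). Egr2 was the 1 of these 7 that held a CArG box within 250 bases before a start, on the plus strand of chromosome 10. Windows of Egr1, Ier2 and Myc were not searched, so nothing is said here of their CArG boxes. Of all promoter windows, 1.47% hold one. The 2 boxes are shown because CArG boxes are the classical serum-responsive element of this gene class; in the second window the core CGTCA lies just downstream.
Egr2, chr10:67537484-67537513, plus strand: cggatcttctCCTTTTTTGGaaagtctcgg
Egr2, chr10:67537793-67537822, plus strand: cagtCCATATATGGgcagcgaCGTCAcggg
The gene has several start sites in the table, so its windows had more chances of a match than those of a gene with 1 start. Serum response factor itself, Srf, had a beating mean of 4.83 ± 0.24 and a non-beating mean of 5.06 ± 0.11 (SD over 4 arrays; limma adjusted p = 0.33).

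Egr1, the most widely used marker of growth factor signalling in this family, gave 5.60, 6.54, 5.82 and 6.17 in beating replicates 1 to 4. It gave 5.60, 6.43, 6.61 and 6.69 in non-beating replicates 1 to 4. The lowest arrays of the groups were equal to 2 decimals, and only 2 non-beating arrays exceeded the highest beating one. The difference was -0.30 (95% interval -0.95 to 0.35, limma adjusted p = 0.623). Leaving out single arrays moved it between -0.15 without beating replicate 1 and -0.54 without non-beating replicate 1. It was also over 1.5 times smaller without non-beating replicate 4, at -0.18, and over 1.5 times larger without beating replicate 2, at -0.47.

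Ier2, a nuclear protein with no classical DNA-binding domain that is induced with Fos and Jun, had the smallest p of the 10. Its signals were 3.87, 3.92, 3.55 and 3.70 in beating replicates 1 to 4. They were 3.92, 4.18, 4.37 and 4.39 in non-beating replicates 1 to 4. The highest beating and the lowest non-beating array held the identical value, and the other 3 non-beating arrays lay above all beating arrays. The difference was -0.45 (SE 0.13, 95% interval -0.75 to -0.16), a 1.37-fold lower mean signal in beating samples, with a limma adjusted p of 0.0819. It passed only when non-beating replicate 1 was left out, at -0.55 with an adjusted p of 0.0475. Under the other alternatives run for Ier2 it did not pass.

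Myc, the bHLH factor that drives ribosome production and cell growth, had signals far above the array medians. Beating replicates 1 to 4 gave 7.58, 8.32, 7.12 and 7.68. Non-beating replicates 1 to 4 gave 7.76, 8.68, 7.91 and 8.29. All non-beating arrays lay above 3 of the 4 beating arrays, and beating replicate 2 was above 3 of the 4 non-beating ones. The difference was -0.48 (95% interval -1.13 to 0.16, limma adjusted p = 0.386), a 1.40-fold lower mean signal with an interval that reached 2.19-fold. Without beating replicate 3 it was -0.30, and without non-beating replicate 2 it was -0.31.

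Jun, the central AP-1 subunit, had a mean signal above that of 91.1% of clusters. Its signals were 7.01, 7.32, 7.25 and 7.20 in beating replicates 1 to 4. They were 6.95, 7.43, 7.32 and 7.54 in non-beating replicates 1 to 4. The lowest array of all was non-beating replicate 1 and the groups were interleaved. The difference was -0.12 (95% interval -0.42 to 0.19, limma adjusted p = 0.692), and the interval reached 1.34-fold lower and 1.14-fold higher. It was -0.04 without non-beating replicate 4, -0.05 without beating replicate 1, -0.08 without non-beating replicate 2 and -0.24 without non-beating replicate 1. The 250 bases before the outermost start of Jun, on the minus strand of chromosome 4, hold a MEF2 box, shown in capitals.
Jun, chr4:95052223-95052472, minus strand: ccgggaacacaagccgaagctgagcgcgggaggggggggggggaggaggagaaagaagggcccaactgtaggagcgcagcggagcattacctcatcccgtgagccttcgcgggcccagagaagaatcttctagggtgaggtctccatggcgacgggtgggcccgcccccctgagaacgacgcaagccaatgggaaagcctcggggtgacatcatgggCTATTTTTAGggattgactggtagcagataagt
MEF2 boxes occur in 2.92% of all promoter windows, and among the 7 genes in Jun and Atf3. The sequence is shown because Mef2c, which encodes a factor that binds such boxes, differed widely between these groups. Mef2c had a beating mean of 10.13 ± 0.19 and a non-beating mean of 6.12 ± 0.52 (SD over 4 arrays), a difference of 4.01 (limma adjusted p = 5.99e-05). Jun, beside that, had the difference of -0.12 given above. A relation between them was not tested.

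Fos, the partner of Jun and the gene by which the early response is most often measured, was dim. Its signals were 3.11, 3.35, 3.25 and 3.02 in beating replicates 1 to 4. They were 3.03, 3.17, 3.68 and 3.40 in non-beating replicates 1 to 4. The groups overlapped, with the highest value in non-beating replicate 3. The difference was -0.14 (95% interval -0.47 to 0.20, limma adjusted p = 0.656). It was -0.02 without non-beating replicate 3, -0.08 without beating replicate 4 and -0.24 without non-beating replicate 1. These signals lay near the array medians, and the mean over both groups exceeded 52.8% of clusters. At such a level part of the signal is background, so a fold in signal may understate a fold in RNA. The 250 bases before its start, on the plus strand of chromosome 12, are shown because they carry the textbook cAMP response element and TATA box of an immediate early promoter; capitals mark 2 matches of TGACG and 1 of TATAAA.
Fos, chr12:85473640-85473889, plus strand: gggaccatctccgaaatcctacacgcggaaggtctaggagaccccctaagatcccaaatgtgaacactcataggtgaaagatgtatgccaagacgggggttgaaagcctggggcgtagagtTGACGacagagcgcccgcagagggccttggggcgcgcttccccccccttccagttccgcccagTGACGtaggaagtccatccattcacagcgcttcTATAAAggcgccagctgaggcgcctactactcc
TATAAA, or on the other strand TTTATA, occurs in 12.4% of all windows, and among the 7 genes only in Fos. The core TGACG was found in 6 of the 7, all but Jun. The AP-1 site TGANTCA was in none of the 7 and in 6.75% of all windows, and the E-box CACGTG was in Egr2 and in 6.02%. Longer elements of this kind, such as TGACATCA in the Jun window above, fall outside the pattern and were not searched.

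Fosb, a Fos relative linked to sustained stimulation, gave 3.05, 3.34, 3.14 and 3.03 in beating replicates 1 to 4. Its non-beating signals were 3.17, 3.20, 3.20 and 3.17, an SD of 0.02 against 0.14 in the beating samples. The non-beating values all fell inside the beating range. The difference was -0.04 (95% interval -0.22 to 0.13, limma adjusted p = 0.801). It was -0.0069 without beating replicate 4, -0.02 without beating replicate 1 and -0.11 without beating replicate 2. Junb, the AP-1 subunit that often opposes Jun, gave 3.27 on 5 of the 8 arrays, identical to 6 decimals, and 3.29, 3.27 and 3.28 on beating replicate 2, non-beating replicate 2 and non-beating replicate 4. The difference was -0.0013 (95% interval -0.11 to 0.10, limma adjusted p = 0.992). Values repeated on several arrays are common in the table: 48.9% of clusters hold a value shared by at least 2 of the 8 arrays, and 4.4% one shared by at least 5. The narrow interval of Junb describes this signal and sets no bound on its transcript.

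Atf3, a stress-induced repressor of the same bZIP class, gave 4.54, 5.14, 4.58 and 4.23 in beating replicates 1 to 4. It gave 4.27, 4.85, 4.41 and 4.74 in non-beating replicates 1 to 4. All non-beating arrays lay inside the range of the beating arrays. The difference was 0.06 (95% interval -0.42 to 0.53, limma adjusted p = 0.916) and -0.0023 after each array was centred on its median.

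**Figure D2:**
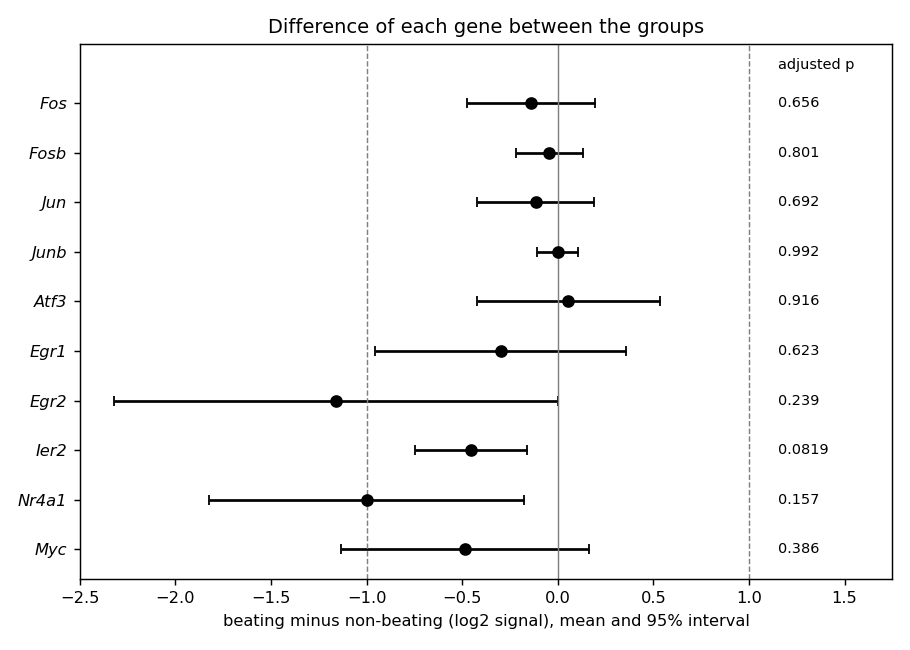
Beating minus non-beating difference of each gene in log2 signal (point) with its 95% interval from limma (bar), and the adjusted p at the right; dashed lines stand at 2-fold. The intervals of Egr2, Nr4a1 and Myc cross the 2-fold line, those of Ier2 and Nr4a1 leave out 0, and no adjusted p is under 0.05.

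The non-beating samples also held more RNA of macrophage genes. Of 15 macrophage markers, 3 passed limma's test, all lower in beating samples (Mpeg1, Ccl3 and C3ar1), where 3.34% of all clusters were called lower, and all 15 had the lower mean there. The list's mean on an array was 3.32, 4.05, 4.27 and 5.19 in beating replicates 1 to 4, and 5.41, 6.48, 5.41 and 6.76 in non-beating replicates 1 to 4. Beating replicate 1, with the lowest macrophage mean, held the lowest beating value of Egr2, Nr4a1, Egr1 and Jun. Of all clusters 24.4% were lowest on that array, and its mean of 8 endothelial markers, 3.72, was also the lowest of the beating arrays, which reached 5.68. Beating replicate 4, with the highest beating macrophage mean, held the highest beating Egr2 but the lowest beating Fos, Fosb and Atf3. Non-beating replicate 2, with the highest value of Egr2 and Nr4a1, was the second highest in macrophage mean. Non-beating replicate 4, with the highest, held the lowest non-beating value of Nr4a1, 4.75, and the highest of Jun, Junb, Egr1 and Ier2. The defining markers differed in level: Cd68 had means of 5.99 and 8.71 in beating and non-beating samples, and Itgam, at 2.89 and 3.18, stayed near the array medians. The part of macrophage RNA in the values of Egr2, Nr4a1 and Ier2 was not tested. Other cell types differed too. Limma called 4 of 12 adipocyte markers lower in beating samples (Adipoq, Lpl, Pparg and Cebpa) and 0 higher, with the lower mean for 9 of the 12. It called 3 of 10 fibroblast markers lower (Pdgfra, Thy1 and Dcn) and 0 higher, with the lower mean for 8 of the 10. Of 6 Schwann cell markers measured, Erbb3 was called higher and 0 lower, and of 8 endothelial markers 0 passed the test and 0 had an unadjusted p under 0.05. Their part in the values of the 10 genes was not tested.

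The 10 genes also differed between arrays of the same group. Their median SD was 0.27 (beating) and 0.28 (non-beating), against 0.21 and 0.14 for clusters brighter than the overall median. Of the 10, 5 lay above that reference in beating samples and 8 in non-beating samples. As the reference is itself a median, the count of 5 of 10 in beating samples shows no excess. Beating replicate 2 held the highest beating value for 9 of the 10 genes, all but Egr2, where 21.5% of all clusters were highest on that array. Non-beating replicate 1 held the lowest non-beating value for 7 of the 10 (Fos, Jun, Atf3, Egr1, Egr2, Ier2 and Myc), where 24.6% of all clusters were lowest there. The highest non-beating values were spread over replicate 2 (Atf3, Egr2, Nr4a1, Myc), replicate 4 (Jun, Junb, Egr1, Ier2) and replicate 3 (Fos, Fosb). The 10 values of an array come from the same RNA, so these counts are not independent cases and were not tested.

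**Figure D3:**
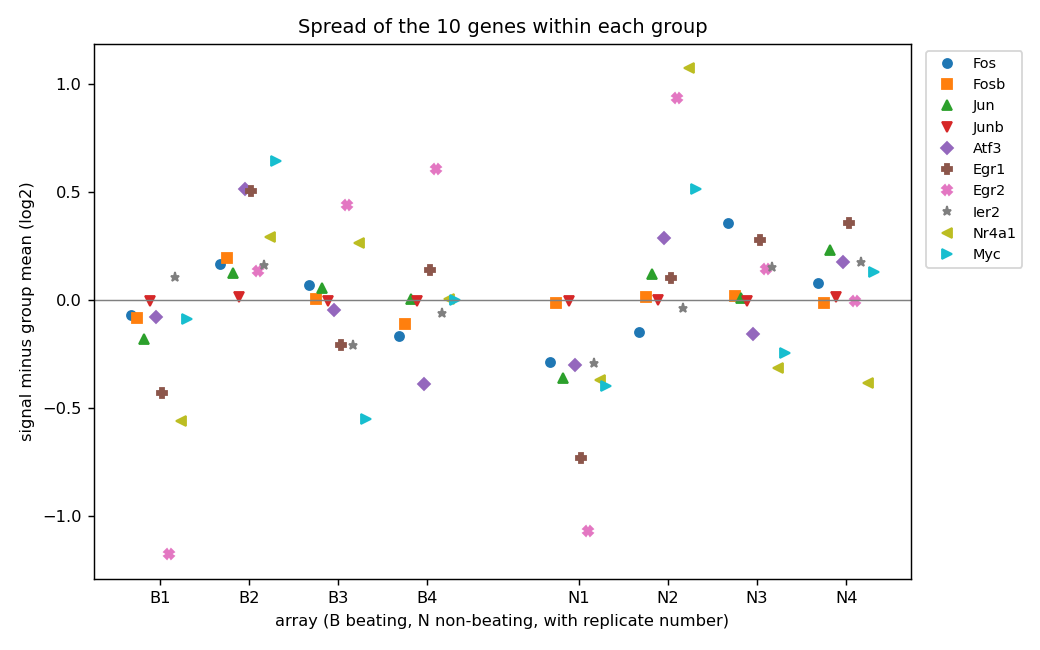
Signal of each gene minus its own group mean (log2) on the 4 beating (B1 to B4) and 4 non-beating (N1 to N4) arrays. All 10 points of B2 lie above 0, all 10 points of N1 lie below it, and Egr2 and Nr4a1 reach furthest from their means.

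By a rule based on likeness of pattern, the genes closest to Fos over the 8 arrays were sought among 2775 genes with a range of at least 1 on the log2 scale. The closest were Hoxb2, Ubl4b, Tspan2, Tmtc2 and Ccdc127, at root mean square differences of 0.17 to 0.22 between centred log2 profiles. The range of Fos itself was only 0.66, so this distance is small against no large movement. Closest to the mean profile of the 10 genes, which had a range of 0.91, were Errfi1, Bach1, Hs2st1, Ddias and Gpalpp1, at 0.14 to 0.16. Errfi1, a feedback inhibitor of the EGF receptor, is itself an early response gene. Gpalpp1 passed the test (-0.55, limma adjusted p = 0.0404) and the other 4 did not, with adjusted p from 0.111 to 0.328.

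Around the 10 genes, 164 further genes of 10 lists could be measured, of which 3 were higher and 17 lower in beating samples. That is 1.83% and 10.4%, against 4.99% and 6.54% of clusters brighter than the overall median, a class that holds 153 of the 164. The counts describe the lists and were not tested against other genes.

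Among 17 further AP-1 and bZIP genes, 2 were lower, 0 higher and 15 did not pass, with a median difference of -0.15. Atf2, a partner of Jun, fell from 7.58 to 7.05 (difference -0.53, adjusted p = 0.0439) and Atf7, its close relative, by 0.43 on the log2 scale (adjusted p = 0.0329). With quantile normalization 1 of the 17 was lower. The Fos relatives Fosl1 and Fosl2 had no overlap between groups, with beating lower, but missed the threshold (differences -0.68 and -0.65, adjusted p = 0.056 and 0.0818). This was not particular to them. The groups of Atf1, Atf2, Atf7, Jdp2, Maf and Maff did not overlap either, with beating lower. With the 2 Fos relatives these are 8 of the 17, a larger share than the 8.24% of all clusters. They are also the 8 genes of the list with an unadjusted limma p under 0.05, where 20.9% of all clusters reached that level. The share among bright clusters was not counted and the excess was not tested. Jund was level at 5.51 and 5.47 (adjusted p = 0.827).

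Of 19 other early response transcription factors, 1 was higher and 2 lower. Nr4a2, the sister receptor of Nr4a1, fell by 0.41 (4.38 ± 0.09 against 4.79 ± 0.08, SD, n = 4 each, limma adjusted p = 0.0136). Nr4a3 stayed at 2.98 and 3.09, near the array medians (adjusted p = 0.467). Cebpd, an inflammatory bZIP factor, fell by 0.72 (adjusted p = 0.0357). Hes1, the Notch target repressor, rose by 0.60 (adjusted p = 0.0483), a call that was lost when arrays were centred on their medians. With quantile normalization 1 of the 19 was lower.

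Of 28 early response genes that do not bind DNA, 3 were lower and 0 higher. They were Ccl2, the monocyte chemokine (-0.84, adjusted p = 0.0117), Socs3, the cytokine feedback inhibitor (-0.44, adjusted p = 0.0293), and Mcl1, a survival protein (-0.28, adjusted p = 0.037). After median centring 5 of the 28 were lower, and after quantile normalization 2. Il6 missed the threshold at -1.58 (adjusted p = 0.052), and so did Dusp2, higher in beating, at 0.34 (limma adjusted p = 0.0694). Of 18 feedback and corepressor genes, 3 were lower, among them Spred1 (-0.65, adjusted p = 0.0275) and Spred2 (-0.61, adjusted p = 0.00871), inhibitors of the Ras and MAP kinase cascade, and Zfp36l2, an RNA decay factor (-0.84, adjusted p = 0.0324). The count was 5 after median centring. Dusp1, the MAP kinase phosphatase usually induced with Fos, had a difference of -0.32 (adjusted p = 0.412), and Nab1 and Nab2, corepressors of EGR proteins, had -0.68 and -0.46 (adjusted p = 0.0607 and 0.231). Dusp10 of this list was higher in beating but missed the threshold (0.97, limma adjusted p = 0.0525).

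Of 18 genes for the inputs to these promoters, 1 was lower and 0 higher. It was Mrtfb, a coactivator of serum response factor (-0.47, adjusted p = 0.0447), while 0 were lower and 1 higher after quantile normalization and 2 lower after median centring. Creb1 had -0.59 (adjusted p = 0.101) and Mapk8, the JNK kinase that phosphorylates Jun, had 0.43 (adjusted p = 0.0863).

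Of 15 genes of the Myc and Max network, 1 was higher and 1 lower. Max, the obligate partner of Myc, fell from 9.19 to 8.33 (difference -0.86, adjusted p = 0.026). Usp28, a deubiquitinase that stabilises Myc, rose from 3.42 to 4.91 (difference 1.49, adjusted p = 0.00407). Fbxw7, also in this list, had means of 8.24 in beating and 7.10 in non-beating samples (difference 1.14). It missed the threshold (limma adjusted p = 0.059). What these differences mean for Myc protein was not tested. Of 20 Myc target genes, 2 were lower, Srm of polyamine synthesis (-0.62, adjusted p = 0.0432) and Fbl of ribosomal RNA processing (-0.37, adjusted p = 0.0158), and the list's median difference was -0.02. Tfrc of this list was higher in beating but missed the threshold (1.10, limma adjusted p = 0.0854). Of 13 genes with AP-1 sites in their regulation, 1 was lower, Hmox1, the haem-degrading enzyme (-0.96, adjusted p = 0.0197). The list's median difference was -0.14, and 10 of the 13 had the lower mean in beating samples. Ccnd1 had the largest difference of this list, -1.21, with no overlap between groups, but missed the threshold (limma adjusted p = 0.0646). Of 9 heat shock genes, Hspa8 was higher (0.38, adjusted p = 0.0226) and Hspd1 and Dnajb1 were lower (-0.53 and -0.43, adjusted p = 0.0223 and 0.0293). Of 14 integrated stress response genes 0 passed limma's test and 4 had an unadjusted p under 0.05. Their 2 brightest, Hspa5 and Asns, had -0.38 each (adjusted p = 0.109 and 0.126).

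**Figure D4:**
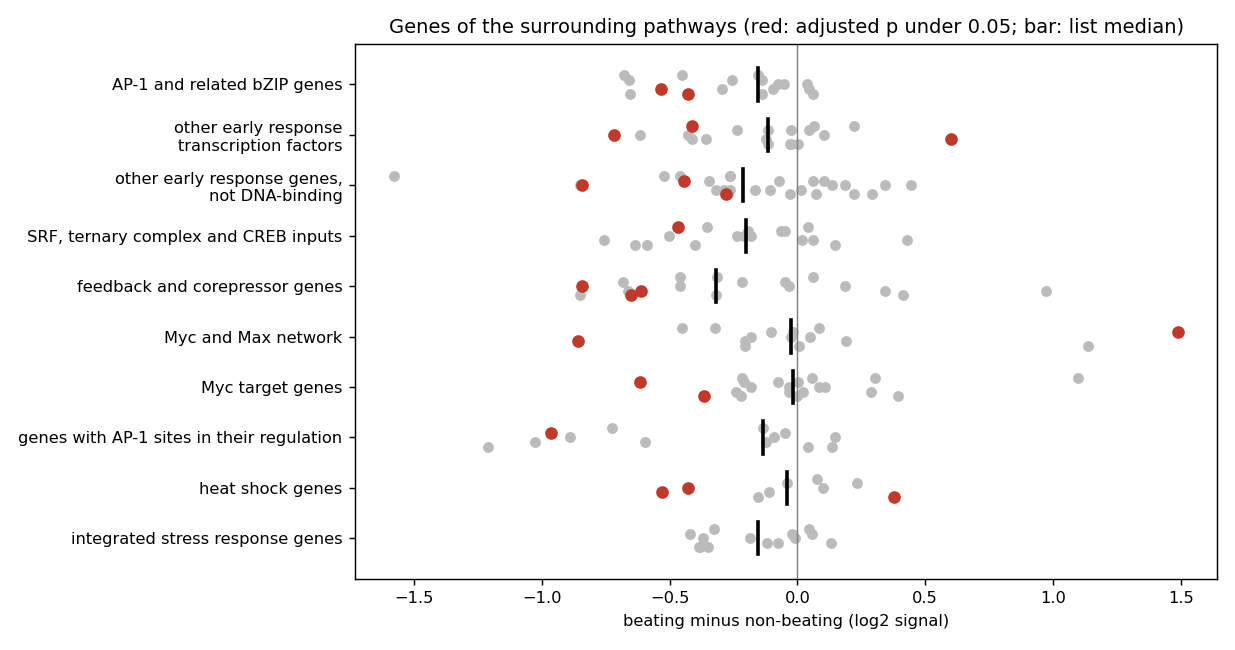
Beating minus non-beating difference in log2 signal for each measured gene of the 10 lists around the immediate early factors, with genes past limma's adjusted p of 0.05 in red and a black bar at the list's median. Of the 164 genes, 17 red points lie left of 0 and 3 right of it, the furthest right being Usp28 at 1.49.

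The round pool has no replicate and no test, and its array differed in scale from the others. As deposited, 46.4% of clusters lay above all 8 other arrays and 24.4% below them. Jun (5.63), Egr1 (4.47), Myc (5.71) and Junb (3.06) lay below all 8, Fosb (3.79) lay above all 8, and the other 5 lay within. Relative to the non-beating mean the largest differences were those of Myc, -2.45, Egr2, -1.90, Egr1, -1.86, and Jun, -1.68. The low values of bright genes went with the whole array: in the brightest of 4 level groups of clusters the median difference was -1.33, and 73.5% of its clusters lay below all 8 arrays. Jun, Egr1, Egr2, Nr4a1 and Myc belong to that level group, while Fos, Fosb, Junb, Atf3 and Ier2 belong to the next, with a median difference of 0.21 and 18.3% below. Of 12 housekeeping genes 10 were measured, and all 10 were lower in the round pool than in the non-beating mean.

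After median centring 7 of the 10 genes lay below all 8 arrays and 1 above, where 47.7% and 25.1% of clusters did. After quantile normalization of the 9 arrays 5 lay below and 1 above, where 29.2% and 35.6% of clusters did. Jun, Junb, Egr1 and Myc lay below and Fosb above under all 3 scalings. Fos turned from 0.15 above the non-beating mean to -0.30 and -0.32. Egr2 differed from the beating mean by -0.74 as deposited and by 0.21 after quantile normalization. The macrophage mean of the round pool was 3.57, within the beating range.

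**Figure D5:**
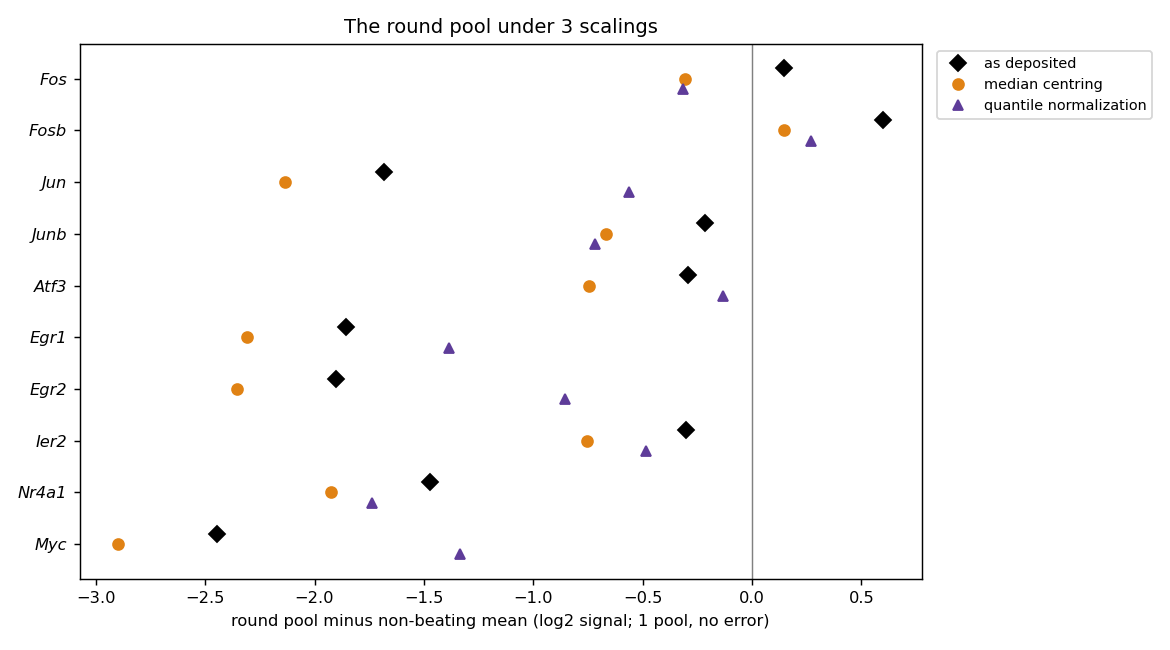
Round pool minus the mean of the 4 non-beating arrays in log2 signal for each gene, as deposited (diamonds), after centring each array on its median (circles) and after quantile normalization (triangles); with 1 pool there is no error bar. Fosb lies right of 0 under all 3 scalings, Fos changes side, and the other 8 genes lie left of 0.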

How the data were processed

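The deposited values are log2 signals of Affymetrix Mouse Gene 1.0 ST arrays, after amplification with the Ovation Pico WTA System. The authors' methods describe log2 scaling, normalisation and mean centring in BRB-ArrayTools, but which step made the deposited log2 table is not given in the sources used here. Values were used as deposited for 33323 clusters on 9 arrays, of which 21789 clusters carry 1 gene symbol. Symbols come from the array annotation and positions from RefSeq (GRCm38.p6). Egr1, Ier2 and Myc have no promoter window here. The search for the 10 genes left out windows on chromosome 18, where Egr1 lies, while the shares over all windows did not. The main test was limma 3.58.1 under R 4.3.3 (lmFit, eBayes, 4 beating against 4 non-beating arrays, two-sided, Benjamini-Hochberg over all clusters) with 95% intervals, after a check on simulated data. Whether replicates are separate lots is not stated, so p-values measure only the spread between these samples. The number of arrays limits the precision. All 10 genes are named, with, in each list, up to 4 called genes or the 2 brightest and, for likeness, 5 genes. Other genes (Fosl1, Fosl2, Atf1, Jdp2, Maf, Maff, Jund, Egr3, Nr4a3, Srf, Mef2c, Il6, Dusp1, Dusp2, Dusp10, Nab1, Nab2, Creb1, Mapk8, Fbxw7, Tfrc, Ccnd1 and the single markers) were chosen after their values were seen. The genes, lists and rules were chosen with earlier results of these data known. Motifs were searched on both strands of the 250 bases before each start; the core TGACG and its reverse can overlap. Alternatives covered scaling, filters, variance model, array weights, the methods' two-sample test, pairing and leaving out arrays.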

Additional observations from a re-analysis of the deposited data

Results flagged for a closer look

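Of 20 groups of 4 values (10 genes in each of the 2 groups), 2 held an array far from the other 3, by Dixon's test at its 95% critical value. About 1 in 20 such groups is expected to do so by chance. Nr4a1 in non-beating replicate 2 stood at 6.21, with a gap of 0.954 of the group's range of 1.46. Junb in beating replicate 2 stood at 3.29, with a gap of 1 times a range of only 0.02, since the other 3 arrays held the same value.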

How the results depend on the processing

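Over 19 alternatives the 178 recomputed differences kept their direction and their side of the threshold in 168 cases. The filters, the variance model, the methods' two-sample test and the replicate block leave a difference unchanged, so there only the call could move. Ier2 passed in 1, without non-beating replicate 1, which moved the count of lower genes from 0 to 1 (0 to 1 over the single arrays left out). Signs turned in 9 cases, 5 of Atf3 and 4 of Junb. Atf3 became -0.0023 with median centring, -0.0075 with array weights, and -0.022 without both arrays numbered 2, an alternative chosen after seeing the data, and lay between -0.12 and 0.19 without single arrays. Junb lay between -0.0060 and 0.0024 without single arrays. Over all clusters the higher and lower counts, 940 and 1114, were 837 and 1617 with median centring, 956 and 1099 with quantile normalization, 1078 and 1594 with dim clusters left out, 491 and 375 by the methods' test after adjustment, 195 and 26 with the methods' prefilter and threshold, and 380 and 186 without both arrays numbered 2. Without single arrays the higher and lower counts ranged from 569 to 914 and from 438 to 1023. With the methods' prefilter and threshold both counts lay below those the paper reports, which were thus not reproduced here. With the replicate block the lower count was 645, the higher count 637, and 0 of the 10 genes passed. Over all clusters, same-numbered samples did not deviate together (correlations of -0.012, 0.0278, -0.00938 and 0.0203). No sample matched its own number best, so the numbers were not read as pairs. Whether same-numbered samples share dishes is not stated. If they do, the main fit leaves that pairing out. Some of the 10 genes did move alike: Egr2 lay at -1.18 and -1.07 from its group means in replicate 1. Atf3, Nr4a1 and Myc were highest in replicate 2 of both groups, while Ier2 in replicate 1 lay at 0.11 and -0.29. With the block, limma adjusted p was 0.0774 for Egr2, 0.11 for Myc, 0.106 for Nr4a1 and 0.192 for Ier2. Without the block these were 0.239, 0.386, 0.157 and 0.0819. The calls of list genes given above are without the block, and it moved them in both directions. Il6, Dusp10 and Mapk8 passed with it (limma adjusted p = 0.00718, 0.0478 and 0.0475). Max, Hes1, Srm and Fbl were among those that no longer passed (0.075, 0.143, 0.118 and 0.0841). Usp28, Ccl2 and Hmox1 were among those that still did (0.0188, 0.0231 and 0.0285). For the round pool, Fos was -0.30 with median centring and -0.32 with quantile normalization against 0.15. The 1.5-fold prefilter keeps 4 of the 10 genes, and averaging the rows of a gene changes nothing, as each has 1. Fos, Fosb and Junb lie near the array medians, where the signal over background limits what can be seen.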
